A study of Homo sapiens with 14 samples.

Results

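The genes described here are 8 keratins, among them those of hepatocytes and bile duct cells: KRT7, KRT8, KRT18, KRT19, KRT23, KRT80, KRT81 and KRT86. They were taken by gene name from a table of 56479 genes, and all 8 were present. The table holds RNA-seq counts of 14 libraries in 7 groups of 2, from a pair of human liver cancer cell lines, HepG2 (labelled hepatoblastoma) and Hep3B (labelled hepatocellular carcinoma), both labelled WT. The study asked how compression of the cells changes their transcripts. On culture dishes, HepG2 cells spent 5 days either with 4% PEG 300 (polyethylene glycol, an osmotic compressor of cells) or in isotonic medium. HepG2 cells on a transwell membrane were compressed with a weight or left uncompressed. Hep3B cells, all on transwell membranes, were compressed with a weight, exposed to 3% PEG, or left uncompressed. The labels give no duration for the transwell groups. PEG and weight were applied to HepG2 on different surfaces, and the PEG dose differed between the lines. In those contrasts surface and dose cannot be told apart from the kind of compression or the line. The same holds for culture time and anything else that differed between dish and transwell libraries, also where untreated HepG2 on transwells and dishes are compared. The dish libraries are labelled biological replicates. For the transwell libraries no label says that the cultures were separate, so the spread between them may be technical. The p-values on all 14 libraries rest on a spread estimated over dish and transwell libraries together, not on that of the compared groups alone.

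Keratins are intermediate filament proteins of epithelial cells, built as obligate pairs of a type I and a type II chain. Hepatocytes are known to make the pair KRT8 (type II) and KRT18 (type I), whereas bile duct cells add KRT7 (type II) and KRT19 (type I). KRT23 is a type I keratin known from bile duct reactions in injured liver, KRT80 is a type II keratin of many epithelia, and KRT81 and KRT86 are type II keratins of hair.

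By GENCODE 29 on GRCh38, the type II genes lie on chromosome 12: KRT80 at 52168996 to 52192000 (minus strand), KRT7 at 52232520 to 52252186 (plus), KRT86 at 52249300 to 52309163 (plus), KRT81 at 52285913 to 52291534 (minus) and KRT8 at 52897187 to 52949954 (minus). KRT18, a type I gene, lies beside KRT8 at 52948871 to 52952901 (plus). The type I genes KRT23, at 40922696 to 40937634, and KRT19, at 41523617 to 41528308, lie on the minus strand of chromosome 17. KRT86 overlaps KRT7 by 2887 bases.

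Libraries held about 21162000 to 35394400 counts over all genes, entries with no name included. The biological coefficient of variation between the 2 libraries of a group was 0.290 in 4% PEG dishes and 0.323 in isotonic dishes, and 0.0434 to 0.0704 in the transwell groups. Changes were tested with edgeR's quasi-likelihood test on all 14 libraries, with Benjamini-Hochberg adjustment over 19232 genes and a threshold of 0.05. Levels are CPM, counts scaled to library size and composition, and fold changes are on the log2 scale with their standard error (SE). KRT86 did not pass the low-count filter, so 7 of the 8 genes were tested. The cells carried hepatocyte transcripts: the 10 hepatocyte markers summed to 28982 to 142237 CPM in every library. In bulk RNA, fewer cells of a type and less RNA per cell cannot be told apart.

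KRT8 and KRT18, the hepatocyte pair, had the highest levels of the 8 per length of transcript in all groups but 4% PEG, where the level of KRT19 exceeded both. On all libraries KRT18 did not pass the test in any compression comparison, and KRT8 rose in 4% PEG and fell in 3% PEG. KRT18 had 250 and 335 CPM in 4% PEG, against 218 and 364 CPM in isotonic HepG2 dishes. It had 370 and 372 CPM in HepG2 under weight, against 354 and 347 CPM in uncompressed HepG2. In Hep3B it had 266 and 285 CPM under weight and 252 and 274 CPM in 3% PEG, against 300 and 300 CPM uncompressed. The PEG and isotonic dishes overlapped. The 95% interval of its log2 fold change ran between -0.43 and 0.44 in 4% PEG, between -0.35 and 0.52 under weight in HepG2, between -0.56 and 0.31 under weight in Hep3B, and between -0.63 and 0.25 in 3% PEG. KRT18 passed in 3% PEG with the compared groups alone (-0.17, edgeR adjusted p = 0.00477) or the transwell libraries alone (-0.16, adjusted p = 0.0136). It also passed under weight in HepG2 with the compared groups alone (0.12, edgeR adjusted p = 0.0406) and in 4% PEG without isotonic replicate 2 (0.42, adjusted p = 0.0340). Annotated KRT18 pseudogenes, 67 in number, held 3.02% to 7.60% as many counts as KRT18 itself, so a small part of its reads may be split between copies.

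KRT8 had 497 and 629 CPM in 4% PEG, against 298 and 496 CPM in isotonic dishes. The 4% PEG libraries lay above both isotonic ones, by a narrow margin. KRT8 rose by this test (log2 fold change 0.50 ± 0.19, edgeR adjusted p = 0.0477). The call was lost in a fit of the dish libraries alone (adjusted p = 0.290), without isotonic replicate 1 (0.17, adjusted p = 0.309) and without 4% PEG replicate 2 (0.32, adjusted p = 0.252). In Hep3B, KRT8 had 356 and 376 CPM in 3% PEG, against 651 and 648 CPM uncompressed, and the groups did not overlap. It fell there (-0.83 ± 0.19, edgeR adjusted p = 0.0095), and the adjusted p was 0.0516 to 0.0765 when any 1 of the 4 libraries was left out. Under weight KRT8 did not pass the test in either line, at 0.15 ± 0.19 in HepG2 and -0.33 ± 0.19 in Hep3B. Fitted on the transwell libraries alone, both passed, as a rise of 0.18 in HepG2 (adjusted p = 0.00351) and a fall of -0.30 in Hep3B (adjusted p = 4.61e-05). KRT8 pseudogenes, 51 in number, held 3.56% to 6.54% as many counts as KRT8. The annotated spans of KRT8 and KRT18 overlap by 1084 bases on opposite strands, and whether counting used strand is not given in the sources used here.

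**Figure D1:**
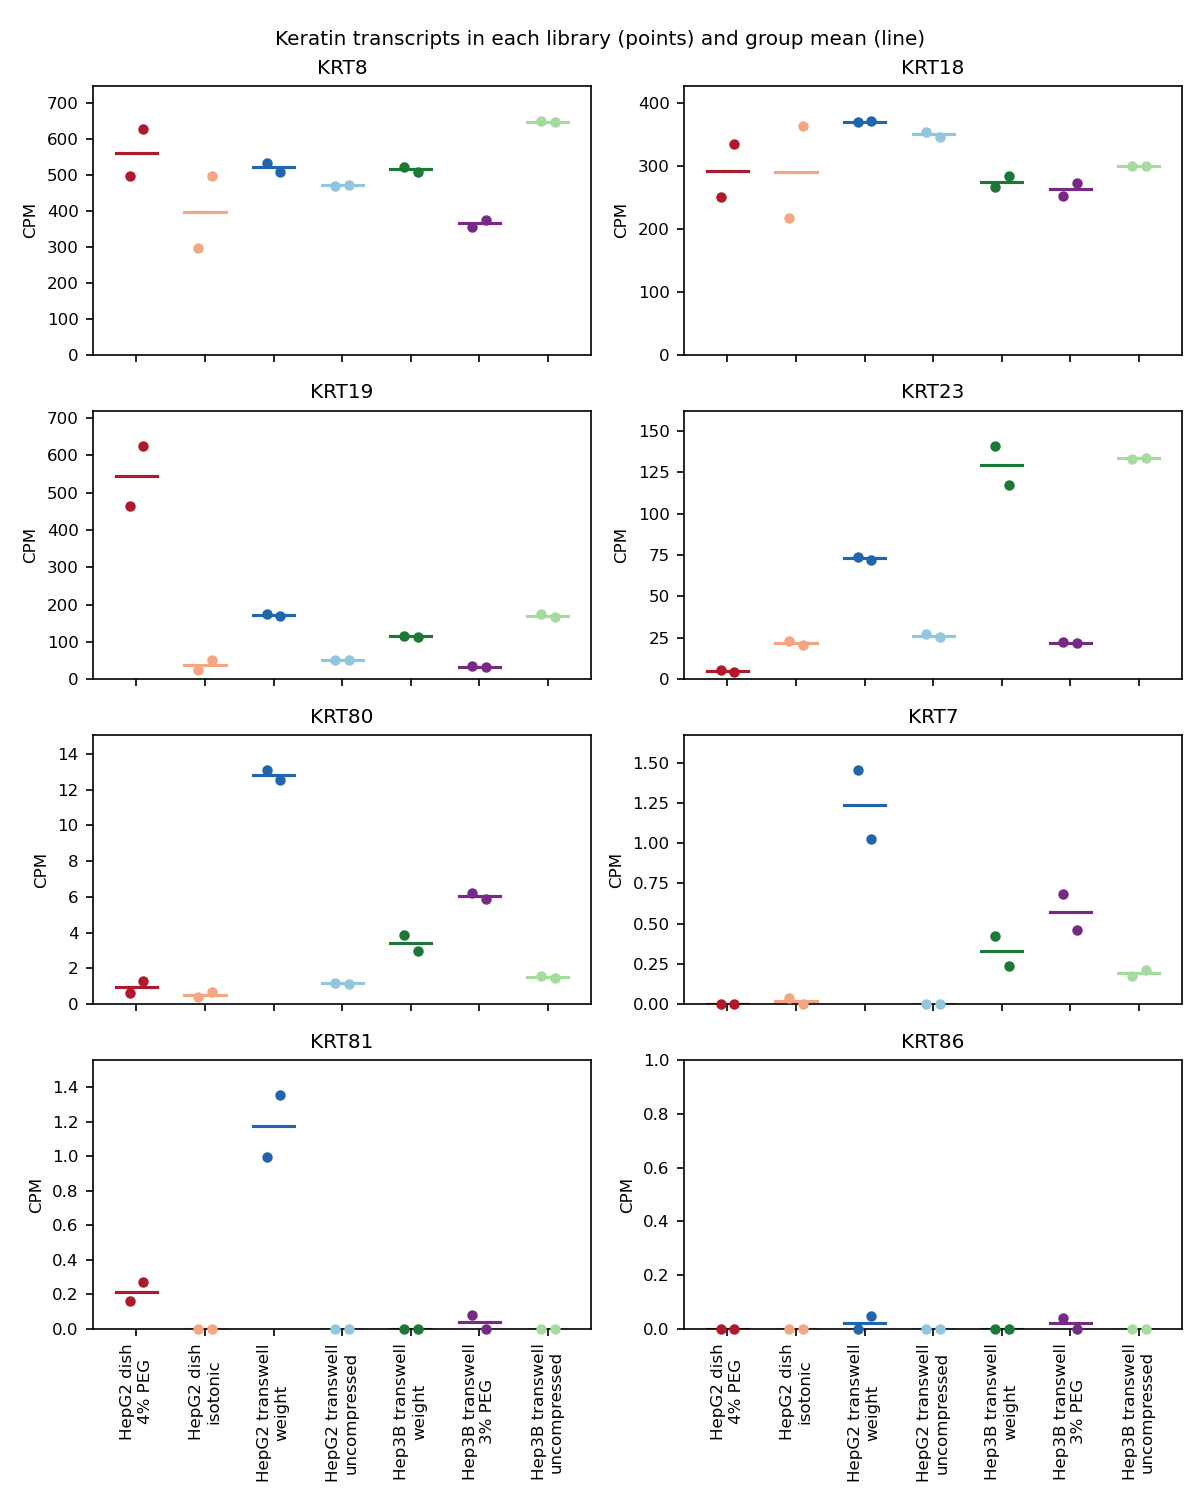
CPM of the 8 keratins (y axis, from 0, a scale per panel) in each library (points) of the 7 groups (x axis), with the group mean as a line. KRT19 is highest in 4% PEG at 466 and 626 CPM, while KRT80 and KRT7 are highest in HepG2 under weight.

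KRT19, the bile duct partner of KRT7, rose in HepG2 under both kinds of compression and fell in Hep3B in 3% PEG. In HepG2 it had 466 and 626 CPM in 4% PEG, against 24.7 and 51.4 CPM in isotonic dishes. Both PEG libraries lay far above both isotonic ones. KRT19 rose 14.4-fold (3.84 ± 0.28, edgeR adjusted p = 7.18e-07). Under weight it had 176 and 170 CPM in HepG2, against 52.5 and 53.2 CPM uncompressed, a 3.27-fold rise (1.71 ± 0.26, edgeR adjusted p = 0.00198). In Hep3B it had 35.6 and 32.5 CPM in 3% PEG, against 174 and 167 CPM uncompressed. It fell there to a level 5.01-fold lower (-2.33 ± 0.26, edgeR adjusted p = 1.00e-04). Hep3B under weight had 117 and 114 CPM, below both uncompressed libraries, with a log2 fold change of -0.56 ± 0.25 that did not pass the test on all libraries (adjusted p = 0.572) and did on the transwell libraries alone (-0.53, adjusted p = 3.76e-08). The response to PEG differed between Hep3B and HepG2 by -6.17 ± 0.38 (edgeR interaction, adjusted p = 6.95e-07), a contrast in which dose and surface differ too. KRT19 pseudogenes, 5 in number, held at most 1.29% as many counts as KRT19.

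KRT23 rose under weight in HepG2 and fell in PEG in both lines. In HepG2 it had 5.46 and 4.63 CPM in 4% PEG, against 23.3 and 20.7 CPM in isotonic dishes, and fell to a level 4.36-fold lower (-2.12 ± 0.14, edgeR adjusted p = 2.88e-07). Under weight it had 74.0 and 72.0 CPM in HepG2, against 27.2 and 25.4 CPM uncompressed, a 2.78-fold rise (1.47 ± 0.13, edgeR adjusted p = 5.65e-05). The groups were separate in both comparisons. The HepG2 response to PEG lay below that to weight by -3.60 ± 0.19 (edgeR interaction, adjusted p = 2.30e-07), again across surfaces. In Hep3B, KRT23 had 22.4 and 22.0 CPM in 3% PEG, against 133 and 134 CPM uncompressed, and fell to a level 6.01-fold lower (-2.59 ± 0.13, edgeR adjusted p = 4.93e-07). Hep3B under weight had 141 and 117 CPM, on either side of the uncompressed libraries (-0.05 ± 0.12, edgeR adjusted p = 1).

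KRT80 was low everywhere and rose most under weight in HepG2. There it had 13.1 and 12.5 CPM, against 1.20 and 1.12 CPM uncompressed, an 11.0-fold rise (3.46 ± 0.32, edgeR adjusted p = 8.05e-05). In Hep3B it had 6.20 and 5.86 CPM in 3% PEG, against 1.57 and 1.47 CPM uncompressed, a 3.95-fold rise (1.98 ± 0.30, edgeR adjusted p = 7.55e-04). Hep3B under weight had 3.88 and 2.95 CPM, above both uncompressed libraries. That difference of 1.16 ± 0.30 did not pass on all libraries (edgeR adjusted p = 0.138), and passed on the transwell libraries alone (adjusted p = 8.41e-05) and by DESeq2 (adjusted p = 0.0117). In 4% PEG, KRT80 had 0.603 and 1.29 CPM, against 0.389 and 0.657 CPM in isotonic dishes, and the groups overlapped (0.88 ± 0.39, edgeR adjusted p = 0.0847). That difference passed under total counts (1.23, adjusted p = 0.0208) and without 4% PEG replicate 1 (1.30, adjusted p = 0.0104).

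KRT7 was near the limit of detection. HepG2 under weight held 35 and 22 counts, against 0 and 0 uncompressed. Taking 3 counts over the group as the floor, KRT7 was at least 19.4-fold higher under weight (edgeR adjusted p = 0.00117). Both 4% PEG libraries had 0 counts, against 1 and 0 in isotonic dishes. Hep3B held 11 and 6 counts under weight and 17 and 13 in 3% PEG, against 5 and 6 uncompressed, and the 3% PEG difference of 1.54 ± 0.53 did not pass on all libraries (edgeR adjusted p = 0.0663). It passed with the compared groups alone (adjusted p = 0.00913) and with the transwell libraries alone (adjusted p = 0.0163). Over the 14 libraries KRT7 and KRT80 had a Pearson r of 0.93 on log2 CPM, the libraries of a group sharing line and treatment. This r rests partly on libraries where KRT7 had 0 or 1 counts.

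KRT81 and KRT86, the hair keratins, are near copies of each other. Their coding sequences were 93.8% identical with a run of 605 identical bases, longer than a read of 100 bases; the next closest pair, KRT7 and KRT8, had 73.7%. KRT81 also lies wholly inside the annotated span of KRT86, on the opposite strand, so counts of either gene are uncertain. The stretch below shows where they can be told apart: coding bases 1207 to 1326, GRCh38 minus strand of chromosome 12 for KRT81 and plus strand for KRT86, with the 19 differing bases in capitals.
KRT81: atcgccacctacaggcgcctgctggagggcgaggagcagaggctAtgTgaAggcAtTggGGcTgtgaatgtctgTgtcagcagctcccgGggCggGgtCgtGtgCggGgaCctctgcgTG
KRT86: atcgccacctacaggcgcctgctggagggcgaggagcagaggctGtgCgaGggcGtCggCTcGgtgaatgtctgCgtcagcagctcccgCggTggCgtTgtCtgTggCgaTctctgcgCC
KRT81 had 24 and 29 counts in HepG2 under weight, against 0 and 0 uncompressed, at least 18.1-fold higher (edgeR adjusted p = 0.00751). The call was lost without either uncompressed library or without weight replicate 2 (adjusted p = 0.0510 to 0.0637), and DESeq2 gave it no adjusted p. In 4% PEG it had 5 and 8 counts, against 0 and 0 in isotonic dishes, at least 3.53-fold higher (edgeR adjusted p = 0.0228), a call lost without either isotonic library (adjusted p = 0.0778 and 0.0525) or without PEG replicate 2 (adjusted p = 0.0705). In Hep3B it had 2 and 0 counts in 3% PEG and none in the other groups. KRT86 had 1 count in 1 library of HepG2 under weight, 1 in 1 library of Hep3B in 3% PEG, and 0 in the other 12 libraries.

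**Figure D2:**
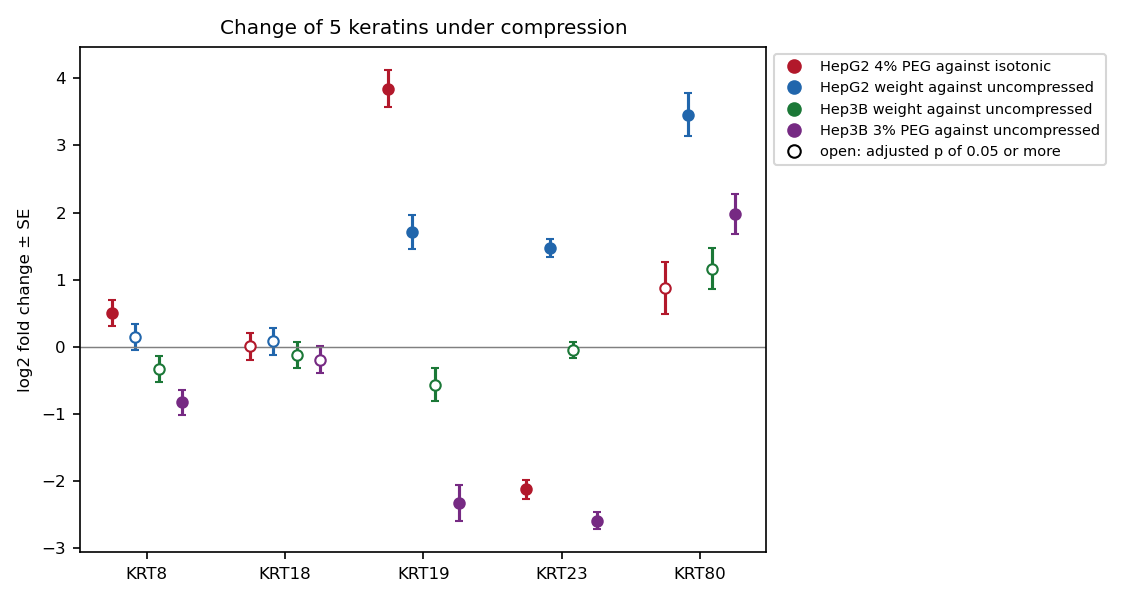
Log2 fold change ± SE (y axis) of the 5 keratins that had counts in every group (x axis) in the 4 compression comparisons, open where the adjusted p was 0.05 or more. KRT19 stands at 3.84 in HepG2 with 4% PEG and -2.33 in Hep3B with 3% PEG.

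Counted together, 4 of the 7 tested keratins were called in 4% PEG, 3 up (KRT8, KRT19, KRT81) and 1 down (KRT23), where 46.9% of all genes were called, 23.9% up and 23% down. Under weight in HepG2, 5 were called, all up (KRT7, KRT19, KRT23, KRT80, KRT81), where 9.58% of all genes were called, 5.4% up and 4.18% down. KRT81 reached the filter's minimum of 10 counts only in that group (24 and 29, against at most 8 in any other library). It therefore entered the 7 tested, and the median below, through the group where it was high. With at least 5 CPM in 2 libraries, which drops KRT7 and KRT81, 3 were called, where 13.9% of all genes were. Under weight in Hep3B none was called by edgeR on all libraries with the filter, where 1.05% of all genes were (0.879% up and 0.172% down). KRT81, among the 7, had 0 counts in both groups and could not be called. The unadjusted edgeR p was under 0.05 for 2 of the 7 (KRT80 at 0.00267 and KRT19 at 0.0452), and DESeq2 called 1. On the transwell libraries alone edgeR called 3, 1 up and 2 down, where 15.2% of all genes were called. With no filter it called 2. In 3% PEG, 4 were called, 1 up (KRT80) and 3 down (KRT8, KRT19, KRT23), where 22.5% of all genes were called, 11% up and 11.5% down. The median log2 fold change of the tested keratins was 1.71 under weight in HepG2, beside 0.00 over all genes tested, and 0.50 in 4% PEG, beside 0.01. Scaled by total counts, the median of all genes stood at 0.37 in 4% PEG; KRT19 and KRT23 kept their direction and their calls.

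The Hep3B groups under weight and in 3% PEG share their control, so they were also set against each other. KRT23 and KRT19 were higher under weight than in 3% PEG, by 2.54 ± 0.13 and 1.76 ± 0.26 (edgeR adjusted p = 6.19e-07 and 6.02e-04), where 23.1% of all genes were called, 11.8% up and 11.4% down. Between untreated lines, KRT23 and KRT19 were higher in Hep3B than in HepG2, by 2.34 ± 0.13 and 1.69 ± 0.26 (edgeR adjusted p = 3.88e-08 and 1.62e-04). KRT7 had 11 counts in Hep3B, against 0 in HepG2, at least 2.99-fold higher (edgeR adjusted p = 0.00791). These 3 of 7 stood beside 54.7% of all genes called, 27.6% up and 27.1% down. KRT81, among the 7, had 0 counts in every untreated group and could not be called between lines or between surfaces. KRT8 averaged 649 CPM in Hep3B, against 472 CPM in HepG2, with no overlap. It did not pass on all libraries (0.46 ± 0.19, edgeR adjusted p = 0.0598). KRT8 passed in 7 of 13 other settings, among them the transwell libraries alone (0.44, edgeR adjusted p = 2.83e-09) and DESeq2 (0.49, adjusted p = 0.0380). No keratin was called between untreated HepG2 on transwells and on dishes by edgeR on all libraries with the filter and TMM, or by DESeq2. There 10.1% of all genes were called (4.79% up and 5.33% down), and surface and culture time cannot be told apart. KRT80 had an unadjusted edgeR p of 0.0113. With total counts edgeR called 2, and with no filter 1. Without isotonic replicate 2 the log2 fold change was 0.67 for KRT8, 0.69 for KRT18, 1.10 for KRT19 and 1.57 for KRT80.

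Differences between responses were tested as interactions. KRT81 is counted among the 7 but could not be called in any of them, as it had 0 counts in the untreated groups. Its SE was 16326 for weight between lines, 4706 for PEG between lines and 4015 for HepG2 PEG against weight. The weight response in Hep3B lay below that in HepG2 for 4 of 7 keratins (KRT7, KRT19, KRT23, KRT80), where 1.89% of all genes were called, 0.822% up and 1.07% down. KRT19 stood at -2.27 ± 0.36 (edgeR adjusted p = 0.00807) and KRT23 at -1.52 ± 0.18 (edgeR adjusted p = 0.00147). KRT7 and KRT80 lost the call whichever library was left out, and KRT19 in 4 of 8 cases. The PEG response in Hep3B lay below that in HepG2 for 2 of 7 (KRT8, KRT19), where 25.5% of all genes were called, 12.9% up and 12.6% down. In HepG2 the PEG response differed from the weight response for 4 of 7, above it for KRT19 and below it for KRT7, KRT23 and KRT80, where 29.9% of all genes were called, 14.4% up and 15.5% down. For KRT7 the dishes held 0 counts in 4% PEG, against 1 in isotonic medium, and the call was lost without isotonic replicate 1 (edgeR adjusted p = 0.9999) and with the compared groups alone (adjusted p = 0.0602).

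The order of the groups differed from gene to gene. KRT19 averaged 546 ± 113 CPM in 4% PEG, then 173 ± 4.38 CPM in HepG2 under weight and 171 ± 4.55 CPM in uncompressed Hep3B (SD, n = 2 each). The HepG2 weight and uncompressed Hep3B groups overlapped, as did the lowest pair, isotonic dishes at 38.1 ± 18.9 CPM and Hep3B in 3% PEG at 34.03 ± 2.18 CPM. KRT23 was highest in uncompressed Hep3B (133 ± 0.557 CPM) and Hep3B under weight (129 ± 16.6 CPM), which overlapped, and lowest in 4% PEG (5.04 ± 0.590 CPM). KRT80 was highest in HepG2 under weight (12.8 ± 0.390 CPM), followed with no overlap by Hep3B in 3% PEG (6.03 ± 0.241 CPM) and Hep3B under weight (3.42 ± 0.661 CPM). KRT8 was highest in uncompressed Hep3B (649 ± 1.85 CPM) and lowest in Hep3B in 3% PEG (366 ± 13.8 CPM), which overlapped the isotonic dishes. KRT18 was highest in HepG2 under weight (371 ± 1.13 CPM), and its 5 lowest groups overlapped in neighbouring pairs.

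Per length of transcript, the make-up of the keratin pool shifted with KRT19. Over all 54 keratins listed, the 8 held 95.8% to 98.5% of the pool in each library. KRT19 made up 43.9% and 45.2% of the pool in 4% PEG, against 5.52% and 7.08% in isotonic dishes. It made up 18.9% and 18.7% in HepG2 under weight, against 7.40% and 7.59% uncompressed. In Hep3B it made up 14.4% and 14.3% under weight and 6.72% and 5.85% in 3% PEG, against 17.8% and 17.3% uncompressed. The ratio of type I to type II transcripts was 2.26 and 2.36 in 4% PEG, against 1.30 and 1.24 in isotonic dishes, and 1.60 and 1.67 in HepG2 under weight, against 1.30 and 1.26 uncompressed. The ratio of KRT8 to KRT18 was 1.46 and 1.38 in 4% PEG, against 1.00 and 1.00 in isotonic dishes, and 1.04 and 1.01 in Hep3B in 3% PEG, against 1.59 and 1.59 uncompressed. These shares are descriptions with no test.

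**Figure D3:**
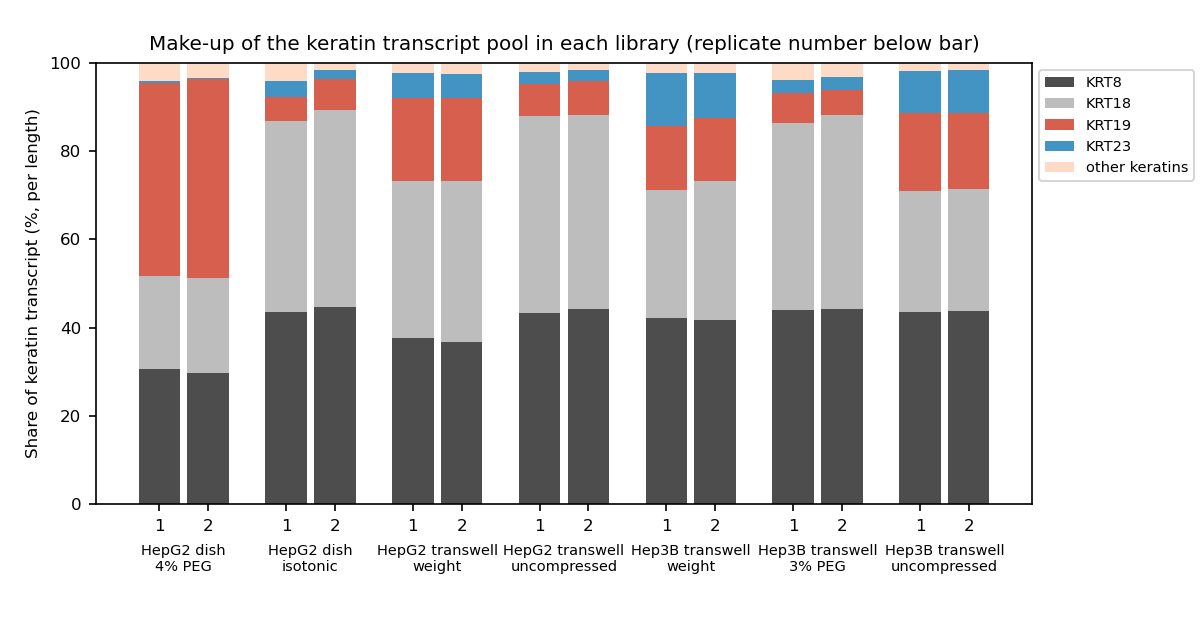
Share of keratin transcript (y axis, percent per length of transcript) in each library (bars, replicate number below). KRT19 fills 43.9% and 45.2% of the pool in 4% PEG and 5.52% and 7.08% in isotonic dishes.

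Of 46 other keratins, 7 passed the filter. Enough counts in the libraries of a single group sufficed to pass, so a gene low elsewhere could be tested because of the group where it was high. The numbers that rose are therefore a description. In 4% PEG, 5 rose and none fell, where 46.9% of all genes were called, 23.9% up and 23% down. They were KRT12, a keratin of the cornea (6.47 ± 0.34), KRT37, a hair keratin (6.33 ± 0.37), KRT15, of basal epithelia (4.86 ± 0.44), KRT20, of gut epithelium (3.77 ± 0.39), and KRT39, a hair keratin (2.45 ± 0.30). All are type I genes of the cluster on chromosome 17 that holds KRT19 and KRT23. KRT12 had 8.80 and 9.97 CPM in 4% PEG, against 0.106 and 0.0939 CPM in isotonic dishes, and KRT37 had 13.5 and 16.7 CPM, against 0.141 and 0.235 CPM. KRT10, in the same cluster, had 23.9 and 18.4 CPM, against 25.1 and 16.1 CPM, and did not pass the test (0.03 ± 0.21). Under weight in HepG2, 4 of the 7 rose and none fell, where 9.58% of all genes were called, 5.4% up and 4.18% down. They were KRT15 (3.42 ± 0.63), KRT37 (3.33 ± 0.44), KRT20 (3.15 ± 0.53) and KRT39 (1.79 ± 0.41). In Hep3B none was called in 3% PEG or under weight, and KRT12, KRT37 and KRT39 had no counts in any Hep3B library.

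**Figure D4:**
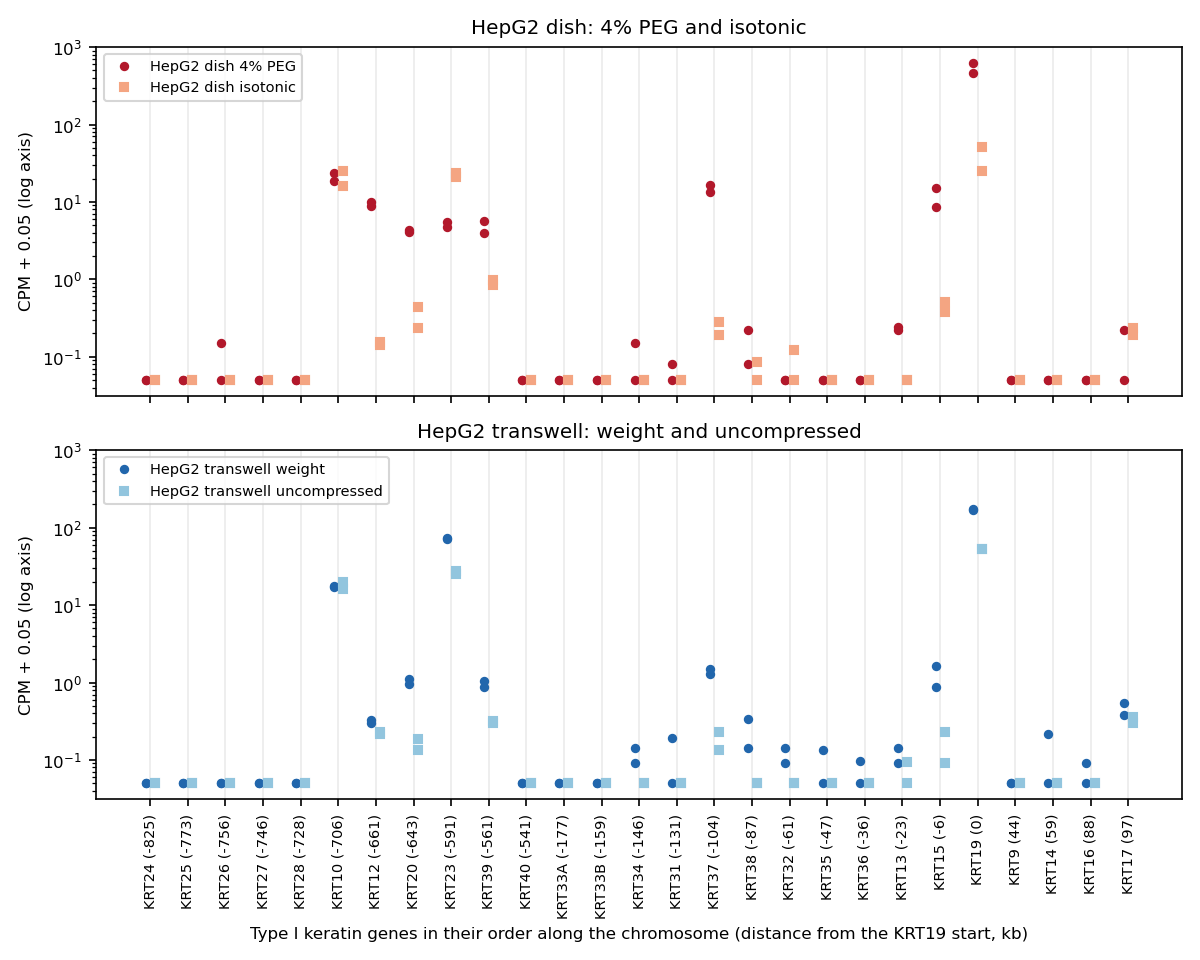
CPM + 0.05 (y axis, log scale) of the type I keratin genes in their order along the cluster, with the distance from the start of KRT19 in kb (x axis), in HepG2 libraries with 4% PEG and isotonic (top) and under weight and uncompressed (bottom). KRT12, KRT20, KRT39, KRT37, KRT15 and KRT19 lie higher in 4% PEG, KRT23 lies lower and KRT10 overlaps.

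The RefSeq promoter table (GRCh38.p14) matched 1 of the 8 keratins, KRT8, and 34 of the 54 keratins in all. The windows of the 2 with the largest rises in 4% PEG are shown, 300 bases each on the minus strand, with TATAAA in capitals; KRT12 is at chr17:40867174-40867473 and KRT37 at chr17:41424536-41424835.
KRT12: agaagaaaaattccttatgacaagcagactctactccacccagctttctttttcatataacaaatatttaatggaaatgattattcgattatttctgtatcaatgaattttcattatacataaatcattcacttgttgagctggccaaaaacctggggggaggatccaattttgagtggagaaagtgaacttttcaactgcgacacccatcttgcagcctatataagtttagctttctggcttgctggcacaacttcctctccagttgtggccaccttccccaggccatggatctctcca
KRT37: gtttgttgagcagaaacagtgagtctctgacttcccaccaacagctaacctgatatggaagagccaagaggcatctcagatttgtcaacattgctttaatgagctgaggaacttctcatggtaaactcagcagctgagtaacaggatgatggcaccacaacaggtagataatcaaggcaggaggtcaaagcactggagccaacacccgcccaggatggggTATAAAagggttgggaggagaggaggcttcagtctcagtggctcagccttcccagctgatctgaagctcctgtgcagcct
On either strand, 5 motifs were searched. TATAAA is held by 11.5% of 35116 promoter windows, GGGCGG by 45.0%, TGANTCA by 7.7%, CCGGAA by 17.2% and GGAATG by 14%. KRT37 held TATAAA 30 bases before its start and GGGCGG 45 bases before it, with no overlap, and KRT39 held TATAAA 85 bases before its start. TATAAA was not particular to keratins that rose, as many of the other keratin windows held it. KRT10, which did not pass the test in 4% PEG, held it 29 bases before its start. KRT38 held TATAAA and GGGCGG at the same 30 and 45 bases as KRT37. KRT8 held CCGGAA 57 bases before its start and GGAATG 17 bases after it. None of the 5 was found in the windows of KRT12 and KRT20.

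Of 21 tested genes that anchor keratin filaments, 9 rose and 1 fell in 4% PEG, beside 23.9% of all genes up and 23% down. The total called was near the 46.9% of all genes. Those that rose included the desmosome cadherin DSG2 (0.99 ± 0.11), the hemidesmosome integrin ITGA6 (1.57 ± 0.16) and the linkers EVPL (2.41 ± 0.43) and PLEC (1.62 ± 0.35), while PKP4 fell (-1.02 ± 0.12). Under weight in HepG2, 5 of 21 rose, beside 5.4% of all genes, among them PPL (1.47 ± 0.24), PERP (0.91 ± 0.17) and DSG2 (0.60 ± 0.11). In 3% PEG, 4 rose, DSG2 (0.81 ± 0.11), ITGA6, PERP and DST, and PKP2 fell (-0.46 ± 0.15), beside 11% of all genes up and 11.5% down. The total called was near the 22.5% of all genes. Under weight in Hep3B none was called by edgeR on all libraries, beside 1.05% of all genes. Of 9 epithelial transcription factors tested, 4 rose and 1 fell in 4% PEG, beside 23.9% of all genes up and 23% down. Under weight in HepG2, 2 rose and none fell, beside 5.4% of all genes up and 4.18% down. In 3% PEG, 1 rose and 1 fell, beside 11% of all genes up and 11.5% down. None was called under weight in Hep3B by edgeR on all libraries. KLF4 rose in 4% PEG (5.03 ± 0.39), under weight in HepG2 (2.33 ± 0.37) and in 3% PEG (5.89 ± 0.47). KLF5 rose in 4% PEG (1.87 ± 0.19) and under weight in HepG2 (1.66 ± 0.19).

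Bile duct and progenitor markers other than keratins were called in both directions in 4% PEG, with 5 of 15 up and 5 down, beside 23.9% of all genes up and 23% down. SOX4 rose (3.20 ± 0.17), and ONECUT1 (-4.36 ± 0.18) and SOX9 (-0.67 ± 0.11) fell. Under weight in HepG2, 6 rose and 1 fell, beside 5.4% of all genes up and 4.18% down, with CD24 at 2.18 ± 0.14 and SOX4 at 1.78 ± 0.16. In 3% PEG, 2 rose and 7 fell, beside 11% of all genes up and 11.5% down, with CD24 at -1.86 ± 0.14 and ANXA4 at -1.81 ± 0.11 among those that fell. Under weight in Hep3B, 1 of the 15 rose and none fell, beside 1.05% of all genes called. Hepatocyte markers fell in 4% PEG, 8 of 10 with none up, including ALB (-4.21 ± 0.13) and AFP (-3.68 ± 0.19), beside 23% of all genes down. In 3% PEG, 5 of 10 fell and 1 rose, with AFP at -1.60 ± 0.17, beside 11.5% of all genes down. Under weight, 1 rose and 1 fell in HepG2, beside 9.58% of all genes called, and 1 rose and none fell in Hep3B, beside 1.05%. Their part in the keratin changes was not tested.

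**Figure D5:**
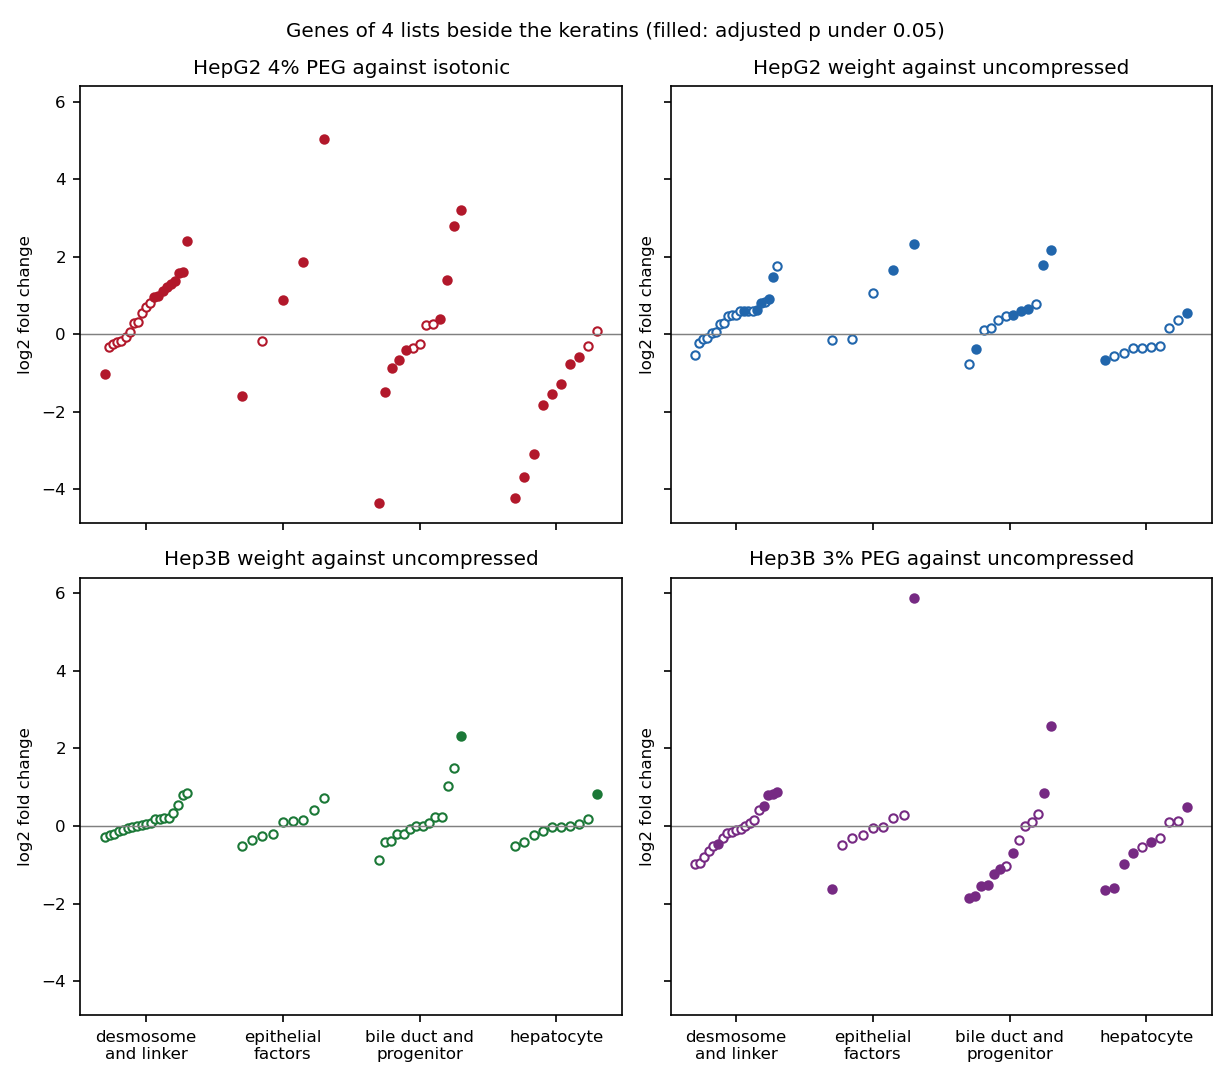
Log2 fold change (y axis) of the tested genes of 4 lists (x axis) in the 4 compression comparisons, filled where the adjusted p was under 0.05; genes with 3 or fewer counts in a group are not drawn. Hepatocyte markers lie lowest in 4% PEG, where 8 of 10 fell.

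The genes most like each keratin over the 14 libraries, among those averaging at least 5 CPM, were BIN3 for KRT19 (Pearson r = 0.95), TCTN2 for KRT23 (0.98), CYP1A1 for KRT80 (0.91), LMCD1 for KRT7 (0.88), HSD3B7 for KRT8 (0.92), PSKH1 for KRT18 (0.94) and ZNF432 for KRT81 (0.86). Libraries of a group share line, treatment and surface. KRT81 had 0 counts in most libraries, and KRT7 had 0 or 1 in every HepG2 library not under weight. Log2 CPM there was set largely by the prior count of 2, so the r values of these genes rest partly on floor values.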

How the data were processed

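Total RNA was sequenced as paired reads of 100 bases, per the labels. The deposited table holds raw counts per gene and library, neither pooled nor normalised; STAR, DESeq2 and GRCh38 (hg38) appear in the submitters' processing notes, with no version or role. The counting tool, its annotation and its strand setting were not stated. Entries with no gene name held at most 0.308% of counts. The columns of uncompressed Hep3B are headed as control, and were matched to their samples by line and replicate number.

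Genes were filtered with filterByExpr (minimum count 10), leaving 19232, and fitted with edgeR 4.0.16 (TMM, robust quasi-likelihood, 1 mean per group, 7 residual degrees of freedom; R 4.3.3). Alternatives included DESeq2 1.42.0. Positions and transcript lengths came from GENCODE 29 on GRCh38. Count floors (3 counts over a group) cover counting error only. The code was tested on simulated counts. Of 2-fold changes, edgeR on all libraries called 26% to 40% between groups and 5% to 14% for interactions. Of 4-fold changes it called 72% to 87% and 48% to 64%. Of the genes called, 1.85% to 10.2% had not been changed. A keratin that did not pass may therefore still have changed. Named genes were all 8 keratins and, from each list, up to 4 genes with the smallest adjusted p in each comparison, plus the genes most correlated with each keratin; KRT10, PLEC, PERP in 3% PEG, and KRT39 and SOX9 in 4% PEG fall outside that rule and were named after their values were seen. The 8 keratins and the lists were chosen with earlier results of these data known.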

Additional observations from a re-analysis of the deposited data

Results flagged for a closer look

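For 10 values, the effect of a treatment differed between lines or between kinds of compression by edgeR's interaction test. Weight effects in Hep3B lay below those in HepG2 for KRT7 (-7.25, adjusted p = 0.0320), KRT19 (-2.27 ± 0.36, adjusted p = 0.00807), KRT23 (-1.52 ± 0.18, adjusted p = 0.00147) and KRT80 (-2.29 ± 0.44, adjusted p = 0.0228), where 1.89% of all genes were called. KRT7 had 57 counts in HepG2 under weight and 0 uncompressed, so its size depends on the prior count and is no bound. Only KRT23 kept its call when any 1 library was left out. The PEG effect in Hep3B lay below that in HepG2 for KRT19 (-6.17 ± 0.38, adjusted p = 6.95e-07) and KRT8 (-1.33 ± 0.27, adjusted p = 0.00372), where 25.5% of all genes were called; dose and surface differ too. In HepG2, the PEG effect minus the weight effect was -10.39 for KRT7 (adjusted p = 0.0203, again no bound, and lost without isotonic replicate 1 at 0.9999, with the compared groups alone at 0.0602 and with a minimum log2 fold change of 1 at 0.0515), 2.14 ± 0.36 for KRT19 (adjusted p = 9.44e-04), -3.60 ± 0.19 for KRT23 (adjusted p = 2.30e-07) and -2.58 ± 0.51 for KRT80 (adjusted p = 0.0028), where 29.9% of all genes were called and the surface differs.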

How the results depend on the processing

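The number of keratins called in 4% PEG was 2 with a minimum log2 fold change of 1, with the groups alone and with the dish libraries alone, and 2 to 5 with 1 library left out. Under weight in HepG2 it was 3 with at least 5 CPM in 2 libraries, which drops KRT7 and KRT81, 7 with the groups alone, 6 with the transwell libraries alone, and 4 to 5 with 1 library left out. Under weight in Hep3B it was 2 with no filter, 3 with the groups or the transwell libraries alone, 1 by DESeq2, and 0 to 0 with 1 library left out. In 3% PEG it was 6 with the groups or the transwell libraries alone, and 3 to 3 with 1 library left out. Between weight and 3% PEG it was 4 with the groups or the transwell libraries alone, and 2 to 2 with 1 library left out. Between untreated lines it was 5 with the transwell libraries alone, and 3 to 3 with 1 library left out. Between transwell and dish it was 2 with total counts, 1 with no filter, and 0 to 4 with 1 library left out. For the interactions it was 0 (weight) and 1 (PEG) with a minimum log2 fold change of 1, 5 and 6 (weight) with the groups and the transwell libraries alone, and 1 to 2, 2 to 4 and 3 to 5 (HepG2 PEG against weight) with 1 library left out. The share of all genes called moved too. In 4% PEG it was 22% (3764) with the dish libraries alone and 15.7% with the minimum fold change, against 46.9% (9011) on all libraries. With the groups and the transwell libraries alone it was 44.5% and 38.6% under weight in HepG2, against 9.58%. Those fits gave 15.2% and 15.2% (2782) under weight in Hep3B, against 1.05% (202), and 60% and 52.6% in 3% PEG, against 22.5%. They gave 56.9% and 52.1% between weight and 3% PEG, against 23.1%, and 20.9% and 22.4% for the weight interaction, against 1.89%. Between untreated lines the transwell fit gave 74%, against 54.7%. The cause was not tested.

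Directions reversed for values that had not passed. KRT18 in 4% PEG was -0.032 with no filter and -0.33 to 0.42 with 1 library left out. With total counts KRT18 was -0.016 between weight and 3% PEG in Hep3B, 0.10 between lines and 0.26 for HepG2 PEG against weight. With 1 library left out, KRT18 was -0.62 to 0.13 for the PEG interaction, -0.41 to 0.34 for HepG2 PEG against weight and -0.056 to 0.69 between transwell and dish, where KRT8 was -0.074 to 0.67. KRT23 under weight in Hep3B was -0.19 to 0.070 with 1 library left out. The cause was not tested.

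With the replicate number as a block, KRT8 between untreated lines passed (0.46, edgeR adjusted p = 0.0416), as in other settings given above. The keratin counts with the block were 4, 5, 0 and 4 in the compression comparisons. Replicate differences correlated at 0.63 between 4% PEG and isotonic dishes and at -0.08 to 0.07 in the other comparisons, and the labels do not pair the samples.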

Other observations

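Of 10 other intermediate filament genes tested in 4% PEG, 6 rose and 2 fell, beside 23.9% of all genes up and 23% down. NES, a filament gene of progenitor cells, stood at 3.09 ± 0.12 and the lamin LMNB1 at -3.64 ± 0.23. DES had 64 counts in 4% PEG, against 0 in isotonic dishes, at least 17.4-fold higher. Under weight in HepG2, NES rose (1.52 ± 0.12) and LMNB1 fell (-0.89 ± 0.20). In 3% PEG both fell, NES at -0.73 ± 0.11 and LMNB1 at -0.73 ± 0.20. VIM, the filament gene of mesenchymal cells, had 17985 counts in uncompressed Hep3B, against 1 in uncompressed HepG2.

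Of 6 markers of cells a culture should lack, PTPRC had at most 3 counts in any group and CD3E had 11 counts in 4% PEG and 0 elsewhere. In 4% PEG, 4 of the 6 were tested, and 2 rose and 1 fell, beside 23.9% of all genes up and 23% down. LYZ was at 523 CPM in 4% PEG, against 4203 CPM in isotonic dishes, and fell (-3.01 ± 0.14, edgeR adjusted p = 3.07e-08). The 6 markers summed to 4850 to 4935 CPM in uncompressed HepG2 on transwells, and to 15.1 to 15.7 CPM in uncompressed Hep3B. VWF had 61 counts in uncompressed HepG2 on transwells, against 1 in uncompressed Hep3B. The source of these transcripts was not tested.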
